A study of Mus musculus with 26 samples.

Results

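The MYC, MAX and MXD network was described from 9 genes taken by symbol with no rule on their values, though with earlier results of these data known: Myc, Max, Mxd1, Mxd3, Mxd4, Mxi1, Mnt, Mga and Mlx. All 9 were present among the 20430 gene symbols of the RNA tables and among the 19941 symbols of the footprint tables. The cells were NIH3T3, an established line of mouse embryonic fibroblasts. PolyA-selected RNA was sequenced in 16 libraries, and ribosome footprints, the mRNA fragments covered by ribosomes, in 10 libraries. Heat was applied at 44 °C for 2 h or at 42 °C for 8 h and had its own unstressed control. Oxidative stress by H2O2 (2 h or 7 h) and osmotic stress by KCl (2 h or 7 h) shared a second unstressed control, so their comparisons are not independent of each other. Each of the 8 RNA groups had 2 libraries, and footprints were analysed in the 5 groups of the H2O2 and KCl experiment, again with 2 libraries each. Doses of H2O2 and KCl, and whether replicates came from separate cultures, are unstated in the labels, so p-values measure only the spread between these libraries, which may be technical.

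MYC is a transcription factor that binds DNA only as a pair with MAX, at a short sequence called the E-box, and promotes genes of growth and ribosome production. The MXD proteins (MXD1, MXD3, MXD4 and MXI1, also called MXD2), MNT and MGA also pair with MAX, bind the same sites and as a rule repress, the MXD proteins and MNT through the SIN3 corepressor and MGA within a Polycomb complex called PRC1.6. MLX is a relative of MAX that pairs with MLXIP and MLXIPL, sensors of glucose metabolites, and with MXD1, MXD4 and MNT. Fibroblasts induce Myc early when growth factors are added, and both its mRNA and its protein are short-lived, while MXD proteins are known from cells that leave the cycle.

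The network's own binding sequence was searched in the promoter windows of its members, short stretches around listed transcription starts in RefSeq's GRCm38.p6 annotation, the build (mm10) that the submitters' processing notes name. Max, Mxd1, Mxd3, Mxd4, Mxi1, Mnt, Mga and Mlx matched a window, and Myc did not. The E-box CACGTG, which reads the same on both strands, stood in the windows of 4 of these 8 genes (4 of their 10 windows), against 7.15% of all 32851 windows. These 4 stretches are shown because their genes encode MAX, MLX and partners of both, with the E-box in capitals and the strand of the gene printed 5′ to 3′.
Max: cccggcgcggtgagcccggtCACGTGtt
Mlx: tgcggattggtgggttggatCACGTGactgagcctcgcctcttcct
Mnt: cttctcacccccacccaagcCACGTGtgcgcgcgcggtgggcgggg
Mxd4: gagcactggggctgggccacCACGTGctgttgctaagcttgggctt
They lie at chr12:76962244-76962271 (minus strand) for Max, chr11:101087230-101087275 (plus strand) for Mlx, chr11:74830781-74830826 (plus strand) for Mnt and chr5:34187904-34187949 (minus strand) for Mxd4. The E-box began at position -3 relative to the listed start of its window for Max, -40 for Mlx, -123 for Mnt and -219 for Mxd4. That start need not be the outer end of the gene. The Max and Mlx stretches lie within their annotated genes (chr12:76937269-76962323 and chr11:101086707-101092207), and the Mnt stretch takes in the first base of its gene (74830806). The core of the antioxidant response element, TGACNNNGC on either strand, was found in 6 of the members' 10 windows (Max, Mga, Mlx, Mxd1, Mxd3 and Mxi1), against 12.4% of all windows. For heat shock elements, built of inverted GAA repeats, TTCNNGAA and GAANNTTC were searched, which are distinct and each read the same on both strands. One or the other was found in 2 of the 10 windows (Mga and Mlx), against 15.1% of all windows for the pair of them. A match describes these letters and is not a measured site. RNA of the 4 members with an E-box is given gene by gene below, and a link between the E-box and RNA changes was not tested.

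RNA totals ranged from 24441877 to 45244430 counts per library and footprint totals from 1460751 to 5168537, so footprint values carry more counting error. Both footprint extremes are the 2 libraries of H2O2 for 2 h, while the other footprint libraries lay between 2884344 and 3925402. Footprint and efficiency results after 2 h with H2O2 thus rest on 2 libraries of uneven depth. Fibroblast markers summed to between 3615 and 10033 TPM (a level per transcript length, relative to all transcripts) in the 16 RNA libraries, although Lum, one of the 8 markers, was at 0 in 5 of them and at most 0.43 TPM. Markers of other cell types were low: the 4 leukocyte markers summed to 5.33 to 44.7 TPM, nearly all of it Cd68, with Cd3e at 0 in 16 of 16 libraries. The 4 epithelial markers summed to 7.89 to 19.6 TPM, mostly Krt18, and the 3 endothelial markers to 0.34 to 3.18 TPM. In such bulk RNA, fewer cells expressing a gene and less RNA per cell cannot be told apart.

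Myc (chr15:61985341-61990361) had the widest range of RNA levels among the 9 genes, from 26.7 to 464 TPM. In CPM, the count relative to the TMM-scaled library total, the H2O2/KCl control libraries held 35.2 and 41.5. With H2O2 for 2 h they held 492 and 494, after 7 h with H2O2 149 and 166, after 2 h with KCl 122 and 111, and after 7 h with KCl 35.4 and 30.3. Every H2O2 library and both libraries after 2 h with KCl lay above the control, while the libraries after 7 h with KCl overlapped it in CPM, though not in TPM. Myc rose 12.9-fold after 2 h with H2O2 (log2 fold change 3.69 ± 0.10 SE, adjusted p = 3.0e-12, edgeR quasi-likelihood F test with Benjamini-Hochberg adjustment over all genes, as everywhere below). It was still 4.12-fold higher at 7 h (2.04 ± 0.09, edgeR adjusted p = 1.0e-10) and 3.05-fold higher after 2 h with KCl (1.61 ± 0.09, edgeR adjusted p = 5.4e-09). Among the 13256 genes tested these rises ranked 425 (2 h of H2O2), 1152 (7 h of H2O2) and 706 (2 h of KCl) from the highest. Under KCl for 7 h the difference was -0.22 ± 0.10 (edgeR adjusted p = 0.061) and was not called, although 7 of 10 alternative settings, DESeq2 among them (-0.23, adjusted p = 0.030), did call it lower. Those 7 included the fit without control library 1 (-0.33, adjusted p = 0.016) and the fit without KCl library 1 at 7 h (-0.34, adjusted p = 0.023), both with edgeR.

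The 2 heat exposures moved Myc in opposite directions. The heat control libraries held 68.8 and 60.6 CPM, the 44 °C libraries 34.1 and 38.8, and the 42 °C libraries 164 and 165. No library of a group overlapped another group. Myc fell at 44 °C by 0.83 on the log2 scale (SE 0.07, edgeR adjusted p = 6.8e-08) and rose 2.54-fold at 42 °C (1.34 ± 0.06, edgeR adjusted p = 3.6e-10). Set directly against each other, 42 °C was 4.52-fold above 44 °C (2.17 ± 0.07, edgeR adjusted p = 2.5e-12), and the 2 exposures differed in both temperature and time. In TPM the order of Myc over the 8 groups ran from H2O2 2 h (mean 462), H2O2 7 h (140) and 42 °C (136), whose libraries overlapped, through KCl 2 h (102) and the heat control (60.8) to the H2O2/KCl control (35.9), 44 °C (35.8) and KCl 7 h (28.7). The H2O2/KCl control and 44 °C also overlapped, while the libraries of the 2 controls did not.

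Max, the shared partner, moved little by comparison. Its RNA was at 79.2 and 80.4 CPM in the H2O2/KCl control, 63.7 and 63.2 at 2 h and 51.0 and 50.2 after 7 h with H2O2, with no overlap. Max fell by 0.33 (SE 0.06, edgeR adjusted p = 0.00031) at 2 h and by 0.66 (SE 0.06, edgeR adjusted p = 2.0e-07) after 7 h with H2O2 on the log2 scale. It was not called in heat or KCl, where it stood at 60.4 to 66.0 CPM in the 6 heat-experiment libraries and at 70.5 to 84.5 CPM in the 4 KCl libraries. On the log2(TPM + 1) scale Max was called lower at 42 °C (-0.28, limma adjusted p = 0.00025) and after 7 h with KCl (-0.22, limma adjusted p = 0.0052), and the median of all genes shifted by -0.16 at 42 °C on that scale. At 7 h with KCl it was also called without KCl library 2 (-0.18, edgeR adjusted p = 0.038) and when only the groups compared were fitted (-0.18, 0.017).

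The ratio of Myc to Max RNA was formed per library in TPM. It was 0.353 and 0.415 in the H2O2/KCl control, 6.14 and 6.12 at 2 h and 2.24 and 2.57 after 7 h with H2O2. Under KCl for 2 h it was 1.16 and 1.09, and at 7 h 0.403 and 0.318. In the heat experiment it was 0.847 and 0.729 in the control, 0.430 and 0.457 at 44 °C, then 2.16 and 2.13 at 42 °C. Myc RNA exceeded Max RNA in every library of H2O2, of 2 h of KCl and of 42 °C, and in no other library.

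**Figure D1:**
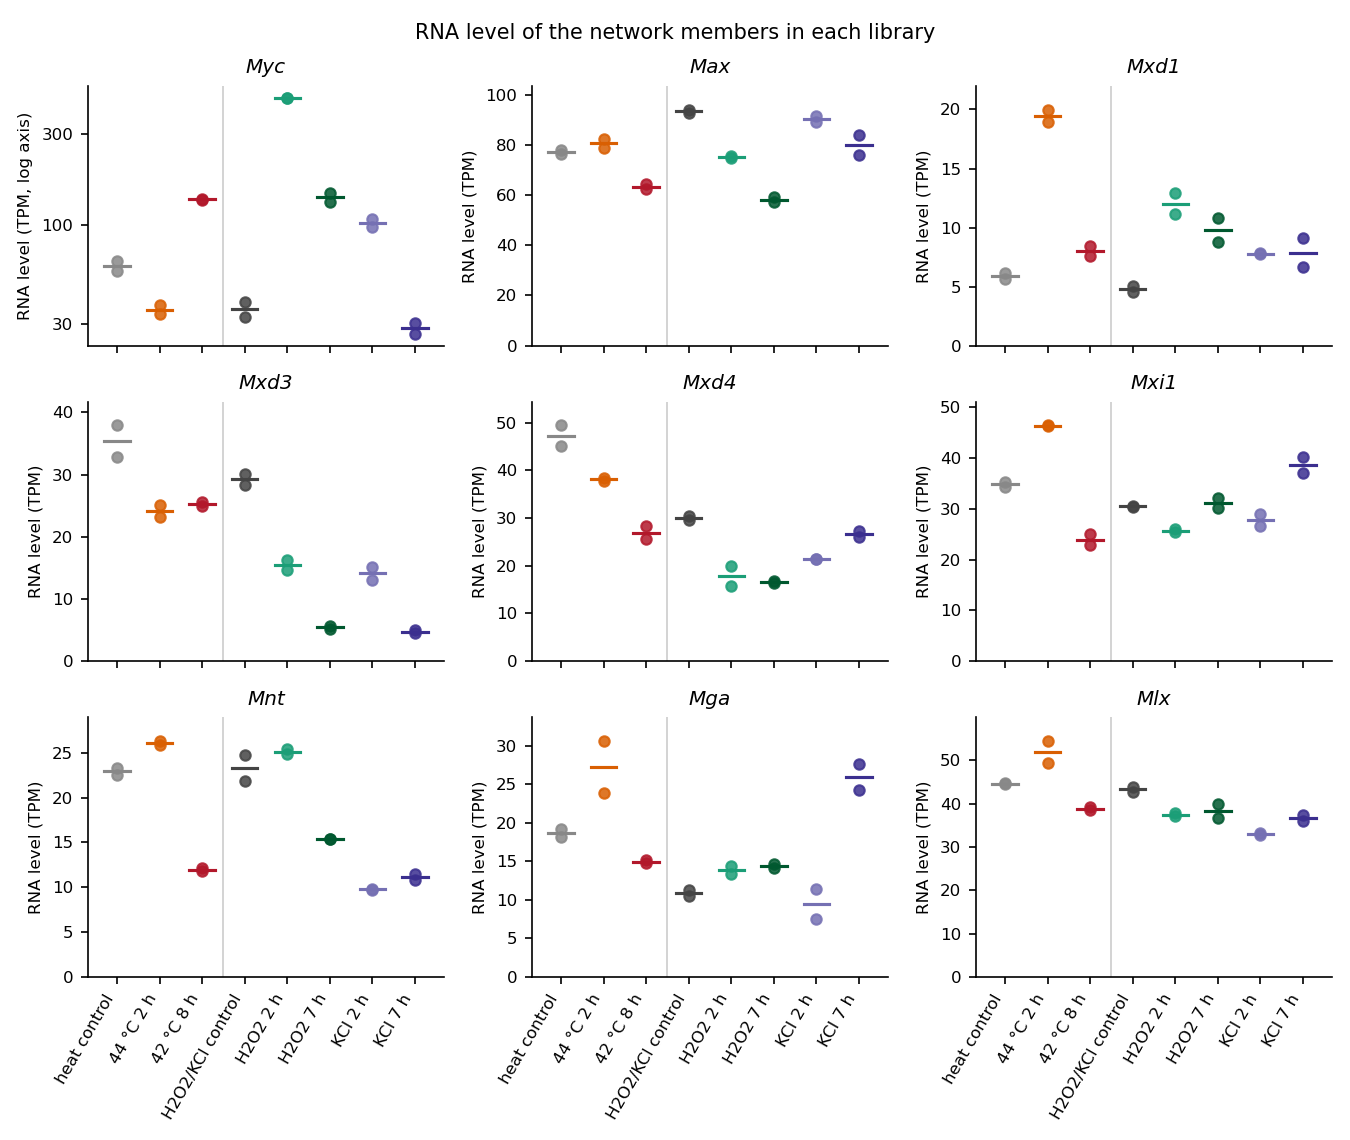
RNA level in TPM of each network member (one panel per gene, Myc on a log axis) in the 16 RNA libraries: points are libraries, bars are means of 2 libraries, and the grey line parts the heat experiment from the H2O2 and KCl experiment. Myc after 2 h with H2O2 (mean 462 TPM) stands above every other group, Mxd1 is highest at 44 °C (19.5 TPM), and Mxd3 is lowest after 7 h with H2O2 (5.43 TPM) and of KCl (4.77 TPM).

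Mxd1 and Mxd3, which encode MAX partners of the same repressor family, went opposite ways in all 6 stresses. Mxd1 libraries held 11.9 and 12.9 CPM in the heat control, 37.8 and 41.0 at 44 °C, then 18.4 and 20.1 at 42 °C. They held 9.78 and 10.7 in the H2O2/KCl control, 23.6 and 27.3 at 2 h and 19.7 and 24.2 after 7 h with H2O2, 17.7 and 17.5 at 2 h and 15.2 and 20.5 after 7 h with KCl. Every stressed library lay above both libraries of its control. Mxd1 rose most at 44 °C (1.67 ± 0.07, edgeR adjusted p = 1.7e-10) and by 0.63 at 42 °C, 1.32 and 1.09 at 2 and 7 h of H2O2, and 0.78 and 0.80 at 2 and 7 h of KCl on the log2 scale, each called in the edgeR test and in the 10 alternatives of its comparison.

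Mxd3, a member of the family known from proliferating cells in S phase, held 18.3 and 21.2 CPM in the heat control, 13.3 and 12.7 at 44 °C, then 16.4 and 15.8 at 42 °C. Its H2O2/KCl control libraries held 15.9 and 16.9. At 2 h they held 9.14 and 8.19 with H2O2 and 9.18 and 7.87 with KCl, and at 7 h 3.37 and 3.09 with H2O2 and 2.82 and 2.96 with KCl. All stressed libraries lay below their control, and the 7 h libraries lay below the 2 h libraries. Mxd3 fell 5.05-fold after 7 h with H2O2 (-2.34 ± 0.12, edgeR adjusted p = 2.7e-10) and 5.67-fold after 7 h with KCl (-2.50 ± 0.12, edgeR adjusted p = 7.2e-10). At 2 h it fell by 0.92 with H2O2 and by 0.94 with KCl, and in heat by 0.60 at 44 °C and by 0.29 at 42 °C, each called by edgeR. The call at 42 °C was lost without heat control library 2 (-0.18, edgeR adjusted p = 0.081). Among the 13256 genes tested, the log2 change of Mxd3 ranked 126 from the lowest after 7 h with KCl and 128 from the lowest after 7 h with H2O2.

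Mxd4 and Mxi1 are the other MXD family members. Mxd4 stood at 22.5 and 24.7 CPM in the heat control, 18.1 and 18.3 at 44 °C, then 16.2 and 14.4 at 42 °C, and at 14.9 and 15.2 in the H2O2/KCl control, 9.99 and 7.89 at 2 h and 8.92 and 8.70 after 7 h with H2O2. It held 11.5 in both libraries after 2 h with KCl and 14.9 and 13.9 after 7 h with KCl. Mxd4 fell by 0.37 and 0.61 at 44 and 42 °C, by 0.75 and 0.77 at 2 and 7 h of H2O2 and by 0.38 after 2 h with KCl on the log2 scale, each called by edgeR, and was not called after 7 h with KCl (-0.06 ± 0.10), where both libraries lay just below the control. Mxi1 held 36.1 and 37.6 CPM in the heat control, 46.5 and 48.2 at 44 °C, then 27.9 and 29.6 at 42 °C, so the 2 heat exposures lay on opposite sides of the control. It rose by 0.36 ± 0.06 at 44 °C and fell by 0.36 (SE 0.06) at 42 °C, and the direct contrast of 42 with 44 °C was -0.72 ± 0.06 (edgeR adjusted p = 4.8e-08). In the other experiment Mxi1 fell by 0.29 (SE 0.07) after 2 h with H2O2 and rose by 0.44 ± 0.07 after 7 h with KCl. It was not called after 7 h with H2O2 (0.08 ± 0.07) or after 2 h with KCl (-0.06 ± 0.07).

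Mnt, which encodes the broadly expressed repressor that opposes MYC, was lowest under KCl. Its H2O2/KCl control libraries held 46.1 and 52.0 CPM, those after 2 h with KCl 22.2 and 21.7 and those after 7 h with KCl 24.8 and 26. Libraries after 2 h with H2O2 held 54.4 and 52.9 and those after 7 h with H2O2 34.3 and 34.5. Mnt fell by 1.16 (SE 0.07, edgeR adjusted p = 1.6e-08) and 0.95 (SE 0.07, edgeR adjusted p = 5.4e-08) at 2 and 7 h of KCl and by 0.51 (SE 0.07) after 7 h with H2O2, and was not called after 2 h with H2O2 (0.13 ± 0.07). Leaving out control library 2 made the value after 2 h with H2O2 a call (0.22, edgeR adjusted p = 0.037). In heat its libraries held 47.3 and 49.0 CPM in the control, 51.8 and 54.4 at 44 °C, then 28.2 and 28.8 at 42 °C. It fell by 0.76 (SE 0.06, edgeR adjusted p = 4.5e-08) at 42 °C. The rise of 0.14 ± 0.05 at 44 °C was lost with DESeq2 (0.15, adjusted p = 0.061) and without 44 °C library 2 (0.11, edgeR adjusted p = 0.15) or control library 1 (0.12, edgeR adjusted p = 0.14).

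Mga, which encodes a very large MAX partner, was highest after 7 h with KCl and at 44 °C. Libraries of the H2O2/KCl control held 61.8 and 64.1 CPM, those after 7 h with KCl 160 and 176, and those after 2 h with KCl 48.8 and 76.9, which lay on either side of the control. The H2O2 libraries stood at 76.9 and 87.0 (2 h) and at 83.1 and 85.8 (7 h). Mga rose 2.67-fold after 7 h with KCl (1.42 ± 0.14, edgeR adjusted p = 5.6e-07). At 2 h with KCl its change was 0.00 ± 0.14, and it turned to -0.37 (edgeR adjusted p = 0.0037) without KCl library 2 and to 0.29 (edgeR adjusted p = 0.0091) without KCl library 1. The rises at 2 h (0.38 ± 0.14, edgeR adjusted p = 0.032) and 7 h (0.42 ± 0.14, edgeR adjusted p = 0.014) of H2O2 were both lost with DESeq2 (adjusted p = 0.13 and 0.099). After 2 h with H2O2 the call was also lost without H2O2 library 2 (0.29, edgeR adjusted p = 0.19), control library 1 (0.35, 0.14) or control library 2 (0.41, 0.090). With H2O2 for 7 h it was lost without H2O2 library 2 (0.40, edgeR adjusted p = 0.062) or control library 1 (0.40, 0.078). In heat Mga held 116 and 109 CPM in the control, 174 and 140 at 44 °C, then 106 and 101 at 42 °C, and rose by 0.48 ± 0.07 at 44 °C (edgeR adjusted p = 4.9e-05). The change at 42 °C (-0.12 ± 0.08) was not called, but was with no filter on low counts (-0.13, edgeR adjusted p = 0.017), when only the groups compared were fitted (-0.12, 0.022) and on the log2(TPM + 1) scale (-0.31, limma adjusted p = 0.020).

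Mlx had the narrowest range, from 28.5 CPM after 2 h with KCl to 41.8 CPM at 44 °C over the 16 libraries. It fell by 0.30 (SE 0.07, edgeR adjusted p = 0.0021) after 2 h with KCl, with 28.5 and 28.6 CPM against 35.8 and 34.7 in the control. The smaller calls after 2 h with H2O2 (-0.20 ± 0.07) and at 44 °C (0.16 ± 0.06) were lost with DESeq2 (adjusted p = 0.055 and 0.052). The call after 2 h with H2O2 was also lost without H2O2 library 2 (-0.18, edgeR adjusted p = 0.12), control library 1 (-0.18, 0.11) or control library 2 (-0.22, 0.052). The call at 44 °C was lost without 44 °C library 1 (0.11, edgeR adjusted p = 0.16), control library 1 (0.17, 0.051) or control library 2 (0.15, 0.075).

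**Figure D2:**
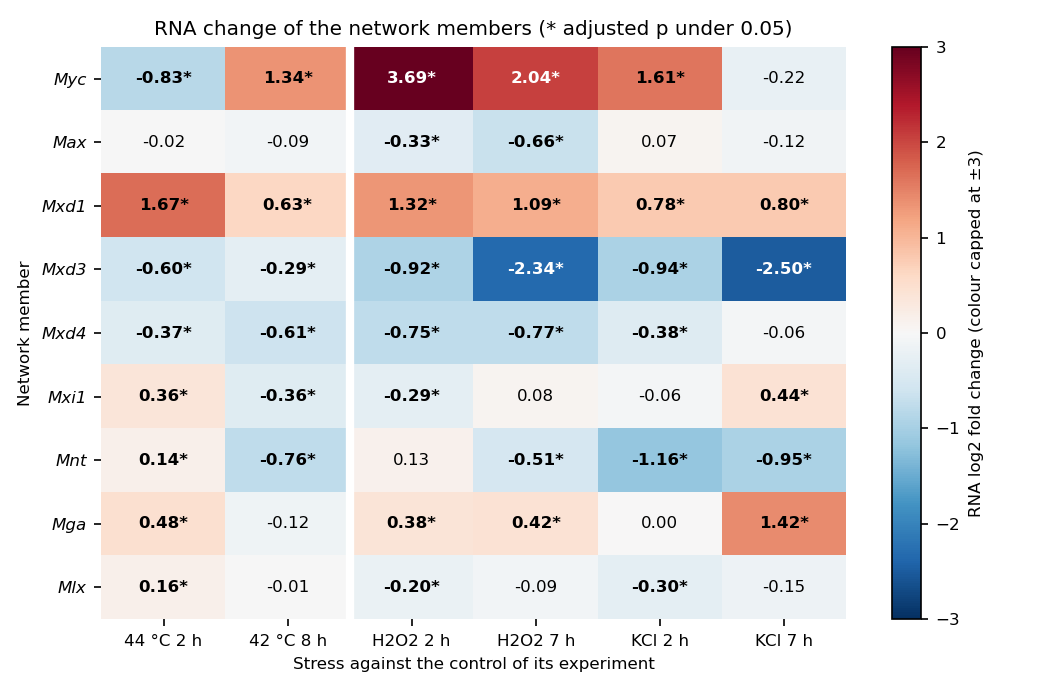
RNA log2 fold change of each member (rows) in each stress against the control of its own experiment (columns), with an asterisk where the edgeR adjusted p was under 0.05 and the 4 right-hand columns sharing a control. The Mxd1 row is positive (0.63 to 1.67) and the Mxd3 row negative (-0.29 to -2.50) in all 6 columns, while Myc ranges from -0.83 at 44 °C to 3.69 after 2 h with H2O2.

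Calls over the network have to be read against a transcriptome in which over 50% of genes were called in each stress. All 9 members passed the filter on low counts in every fit. At 44 °C 5 members were called higher and 3 lower, where 71.0% of the 12747 genes tested were called (35.4% higher and 35.7% lower). At 42 °C 2 were called higher and 4 lower, with 63.6% of all genes called (31.7% higher and 31.9% lower). With H2O2 for 2 h 3 were called higher and 5 lower, with 53.9% of 13256 genes called (27.3% and 26.5%), and at 7 h 3 higher and 4 lower, with 70.5% called (39.4% and 31.1%). Under KCl for 2 h 2 were called higher and 4 lower, with 54.2% called (27.2% and 27.0%), and at 7 h 3 higher and 2 lower, with 68.8% called (37.2% and 31.6%). Under KCl for 7 h the count of 5 grew to 8 when only the groups compared were fitted, and to 8 on the log2(TPM + 1) scale. DESeq2 called 6 members in each stress, where edgeR called 8 at 44 °C and 8 after 2 h with H2O2.

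Exposures were also compared directly. From 2 to 7 h of H2O2, 1 member was called higher and 4 lower (73.4% of genes called, 37.3% higher and 36.1% lower), with Myc lower by 3.13-fold (-1.64 ± 0.09) and Mxd3 by 2.67-fold (-1.42 ± 0.12). From 2 to 7 h of KCl, 4 were called higher and 3 lower (68.8% of genes called, 35.1% higher and 33.7% lower), with Myc lower by 3.54-fold (-1.82 ± 0.10) and Mga higher by 2.67-fold (1.42 ± 0.14). Between 42 and 44 °C, 2 members were called higher at 42 °C and 6 lower (75.1% of genes called, 37.9% higher and 37.2% lower). These were Myc (2.17 ± 0.07) and Mxd3 (0.31 ± 0.08) on the higher side, with Mxd1 (-1.04 ± 0.07) and Mnt (-0.90 ± 0.06) leading the lower side. Mxd3 was at 0.06 (limma adjusted p = 0.45) on the log2(TPM + 1) scale, where the median of all genes shifted by -0.20.

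Between the agents, H2O2 exceeded KCl for Myc by 4.23-fold at 2 h (2.08 ± 0.09, edgeR adjusted p = 4.4e-10) and by 4.79-fold at 7 h (2.26 ± 0.10, edgeR adjusted p = 3.4e-11). Mnt was likewise higher with H2O2, by 1.29 ± 0.08 at 2 h and 0.44 ± 0.08 at 7 h, and Max lower, at -0.40 ± 0.06 and -0.54 ± 0.06. Mxd3 was not called between the agents, with a difference of 0.02 ± 0.11 at 2 h (edgeR adjusted p = 0.88) and 0.17 ± 0.15 at 7 h (edgeR adjusted p = 0.33). At 2 h 4 members were called higher with H2O2 and 3 lower (51.3% of genes called, 27.0% higher and 24.2% lower). The 2 h count of 7 became 4 without H2O2 library 2. At 7 h 2 were called higher and 4 lower (78.4% of genes called, 41.0% higher and 37.4% lower), with Mga lower by -0.99 ± 0.14.

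Ribosome footprints rank Myc far above the rest of the network in unstressed cells. In the control, Myc footprints stood at 309 and 292 CPM against RNA of 35.2 and 41.5, a footprint to RNA ratio of 7.84 where the median of 10467 genes was 0.710 and 99.1% of genes lay below Myc. Mxi1 was at the other end, with a ratio of 0.0885 and 1.47% of genes below it. Mxd1 (0.204), Max (0.301), Mnt (0.344), Mxd4 (0.389) and Mxd3 (0.563) lay under the median, and Mga (1.01) and Mlx (1.02) above it. The ratio also depends on how much of a transcript is coding, since RNA reads cover the whole transcript and footprints mainly its coding part.

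Myc footprints followed its RNA only in part. After 2 h with H2O2 they stood at 911 and 888 CPM, above the control. After 7 h with H2O2 they stood at 216 and 251 CPM and after 7 h with KCl at 164 and 103 CPM, all below the control, and after 2 h with KCl at 591 and 357 CPM, above it. They rose 2.99-fold after 2 h with H2O2 (1.58 ± 0.26, edgeR adjusted p = 0.0085), against 12.9-fold for RNA. This was the only member called there, where 1.91% of 10545 genes were called (1.14% higher and 0.768% lower). The call was lost without control library 1 (1.62, edgeR adjusted p = 0.067), without control library 2 (1.54, 0.072) and on the log2(TPM + 1) scale. With H2O2 for 7 h the footprint change was -0.37 ± 0.25 (edgeR adjusted p = 0.31) while the RNA was 4.12-fold higher. At 2 h with KCl it was 0.66 ± 0.25 (edgeR adjusted p = 0.16), and after 7 h with KCl Myc footprints fell by 1.18 (SE 0.26, edgeR adjusted p = 0.0074), a call lost without KCl library 2 at 7 h (-0.88, edgeR adjusted p = 0.084).

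Translational efficiency, footprints relative to RNA, was tested as an interaction over the 20 libraries of both kinds. Footprints and RNA were each scaled to their own library totals, so a change of translation shared by all genes cannot be seen. Footprint and efficiency changes are therefore relative to the typical gene (median efficiency change -0.01 at 2 h and 0.06 at 7 h of H2O2). For Myc the ratio of CPM values went from 7.84 in the control to 1.83 and 1.48 at 2 and 7 h of H2O2 and to 4.07 and 4.06 at 2 and 7 h of KCl. Myc efficiency fell 4.42-fold at 2 h (-2.14 ± 0.29, edgeR adjusted p = 0.00027) and 5.30-fold after 7 h with H2O2 (-2.41 ± 0.29, edgeR adjusted p = 0.00018), called in all 14 alternative settings at both times. Among 10480 genes the log2 change of Myc ranked 113 from the lowest at 2 h and 40 from the lowest after 7 h with H2O2. Under KCl for 2 h it fell by 0.95 (SE 0.29, edgeR adjusted p = 0.038), a call lost in 9 of 14 alternatives. These were the log2(TPM + 1) scale, the fit of only the groups compared and the fits without RNA control library 1 (-0.84, edgeR adjusted p = 0.14) or 2 (-1.07, 0.059), RNA KCl library 1 (-0.88, 0.10) or 2 (-1.02, 0.071), footprint control library 1 (-0.91, 0.089) or 2 (-0.996, 0.051) or footprint KCl library 2 (-0.64, 0.15). At 7 h with KCl the change was -0.93 ± 0.30 (edgeR adjusted p = 0.076), not called, but called without footprint KCl library 1 (-1.29, edgeR adjusted p = 0.020). Even with the lower ratio, Myc footprints after 2 h with H2O2, relative to all footprints of the library, were the highest of the 5 conditions, at 638 and 620 TPM.

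**Figure D3:**
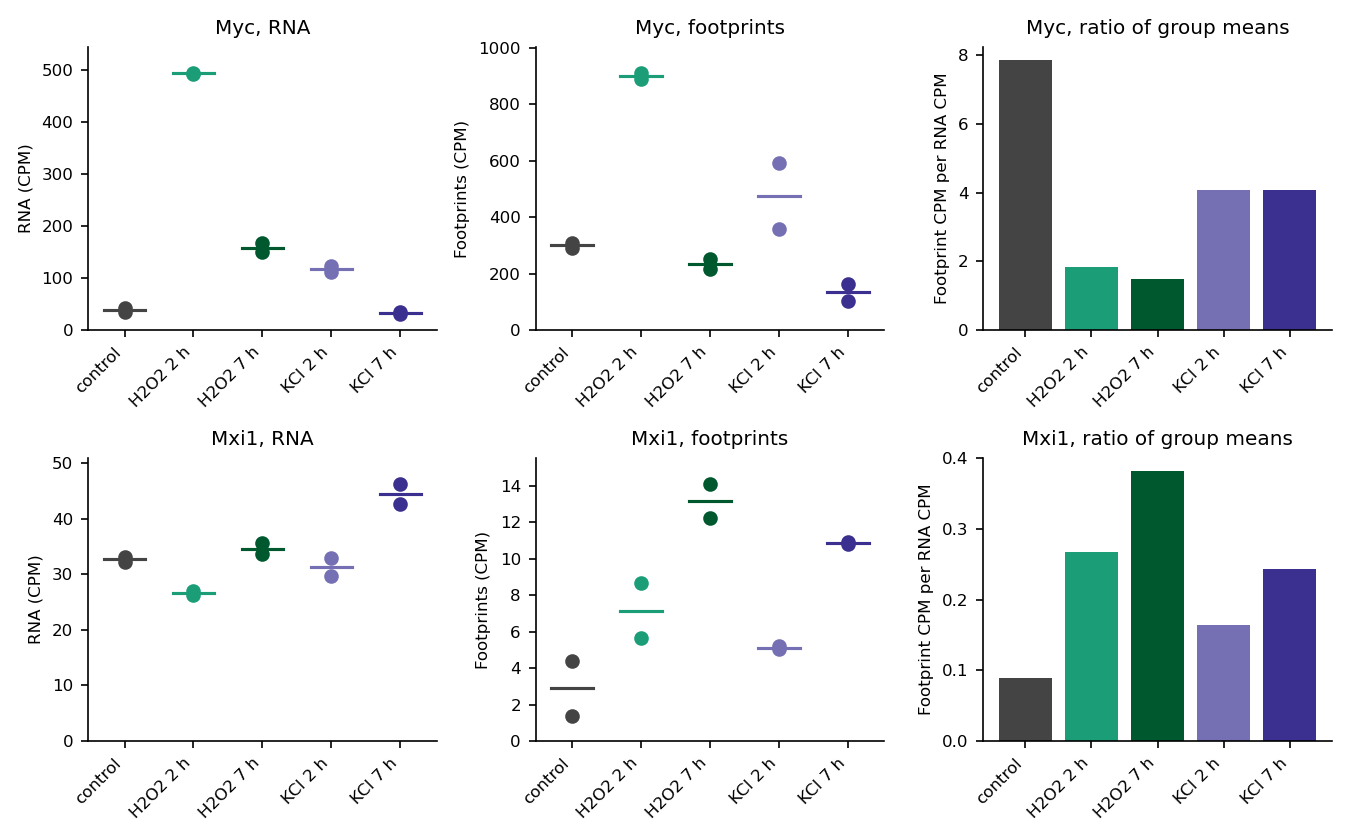
RNA in CPM (left), footprints in CPM (middle) and footprint CPM per RNA CPM of the group means (right) for Myc (top) and Mxi1 (bottom) in the control and the 4 H2O2 and KCl groups; points are libraries and horizontal bars their means. The Myc ratio drops from 7.84 to 1.83 and 1.48 with H2O2, while the Mxi1 ratio rises from 0.0885 to 0.268 and 0.381.

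Mxi1 went the other way in translation, on few reads. Control footprint libraries held 18 and 5 Mxi1 counts (4.40 and 1.37 CPM), and those of H2O2 13 and 29 at 2 h (8.67 and 5.63 CPM) and 43 and 49 at 7 h (12.2 and 14.1 CPM). KCl libraries held 15 and 15 counts at 2 h (5.03 and 5.21 CPM) and 29 and 38 at 7 h (10.9 and 10.8 CPM). All stressed libraries lay above both control libraries. Mxi1 footprints rose 4.43-fold after 7 h with H2O2 (2.15 ± 0.44, edgeR adjusted p = 0.0026) and 3.65-fold after 7 h with KCl (1.87 ± 0.45, edgeR adjusted p = 0.011). The footprint call after 7 h with KCl was lost without control library 2 (1.29, edgeR adjusted p = 0.085), KCl library 1 (1.86, 0.052) or KCl library 2 (1.87, 0.059).

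Mxi1 efficiency rose 4.18-fold after 7 h with H2O2 (2.06 ± 0.34, edgeR adjusted p = 0.0013), called in all 14 alternatives, with 1.52 without footprint control library 2 and 3.17 without footprint control library 1 as the lowest and highest values. With H2O2 for 2 h it rose by 1.35 ± 0.39 (edgeR adjusted p = 0.034) and after 7 h with KCl by 1.45 ± 0.36 (edgeR adjusted p = 0.026), each call lost in 9 of 14 alternatives. Both were lost with limma voom (adjusted p = 0.088 and 0.10), on the log2(TPM + 1) scale and when only the groups compared were fitted. After 2 h with H2O2 the call was lost without RNA H2O2 library 1 (1.38, edgeR adjusted p = 0.054) or 2 (1.34, 0.071), RNA control library 1 (1.38, 0.063) or 2 (1.34, 0.064), footprint H2O2 library 1 (1.17, 0.096) or footprint control library 2 (0.78, 0.19). Under KCl for 7 h it was lost without RNA control library 1 (1.47, edgeR adjusted p = 0.056) or 2 (1.43, 0.059), RNA KCl library 1 (1.39, 0.060), footprint control library 2 (0.89, 0.15) or footprint KCl library 1 (1.45, 0.058) or 2 (1.46, 0.091). At 2 h with KCl the value was 0.84 ± 0.42 (edgeR adjusted p = 0.21), called only without footprint control library 1 (1.95, edgeR adjusted p = 0.027).

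The other members' footprints moved with their RNA where they were called. Mxd1 footprints went from 1.71 and 2.47 CPM in the control (7 and 9 counts) to 7.97 and 7.78 CPM after 7 h with H2O2, and rose 3.74-fold (1.903 ± 0.48, edgeR adjusted p = 0.0087). That call was lost without H2O2 library 1 (1.84, edgeR adjusted p = 0.055) or 2 (1.89, 0.052) or control library 1 (1.62, 0.073). Mxd3 footprints went from 8.56 and 9.89 CPM to 3.70 and 0.864 after 7 h with H2O2 (-1.99 ± 0.51, edgeR adjusted p = 0.0096) and to 1.503 and 2.27 after 7 h with KCl (-2.24 ± 0.54, edgeR adjusted p = 0.011). The first call was lost without H2O2 library 2 (-1.34, edgeR adjusted p = 0.094), the second without KCl library 1 (-2.00, 0.079) or 2 (-2.59, 0.058). Mga footprints went from 70.9 and 56.6 CPM to 136 and 145 after 7 h with KCl and rose 2.20-fold (1.14 ± 0.19, edgeR adjusted p = 0.0018). Footprints of Max, Mxd4, Mnt and Mlx were not called in any of the 4 conditions.

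After 7 h with H2O2 2 members were called higher and 1 lower in footprints (27.7% of 10545 genes called, 17.2% higher and 10.6% lower), a count of 3 that became 1 without H2O2 library 2. Under KCl for 2 h edgeR called 0 members, with 3 at an unadjusted p under 0.05 and 0 called by DESeq2 (6.86% of genes called, 1.79% higher and 5.06% lower). At 7 h with KCl 2 were called higher and 2 lower (20.4% of genes called, 10.5% higher and 9.83% lower), a count of 4 that became 2 without KCl library 1 and 1 without KCl library 2. In translational efficiency after 2 h with H2O2 1 was called higher and 1 lower (11.4% of 10480 genes called, 3.98% higher and 7.46% lower). With H2O2 for 7 h 2 were called higher and 1 lower (9.27% of genes, 4.69% higher and 4.57% lower), Mxd4 being the second one higher (1.07 ± 0.32, edgeR adjusted p = 0.042). The Mxd4 call was lost in 10 of 14 alternatives, among them each of the 8 fits with a library left out (0.95 to 1.20, edgeR adjusted p = 0.065 to 0.15). At 2 h with KCl 1 was called lower (12.8% of genes called, 3.58% higher and 9.18% lower) and at 7 h 1 higher (5.57% of genes called, 1.69% higher and 3.88% lower).

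**Figure D4:**
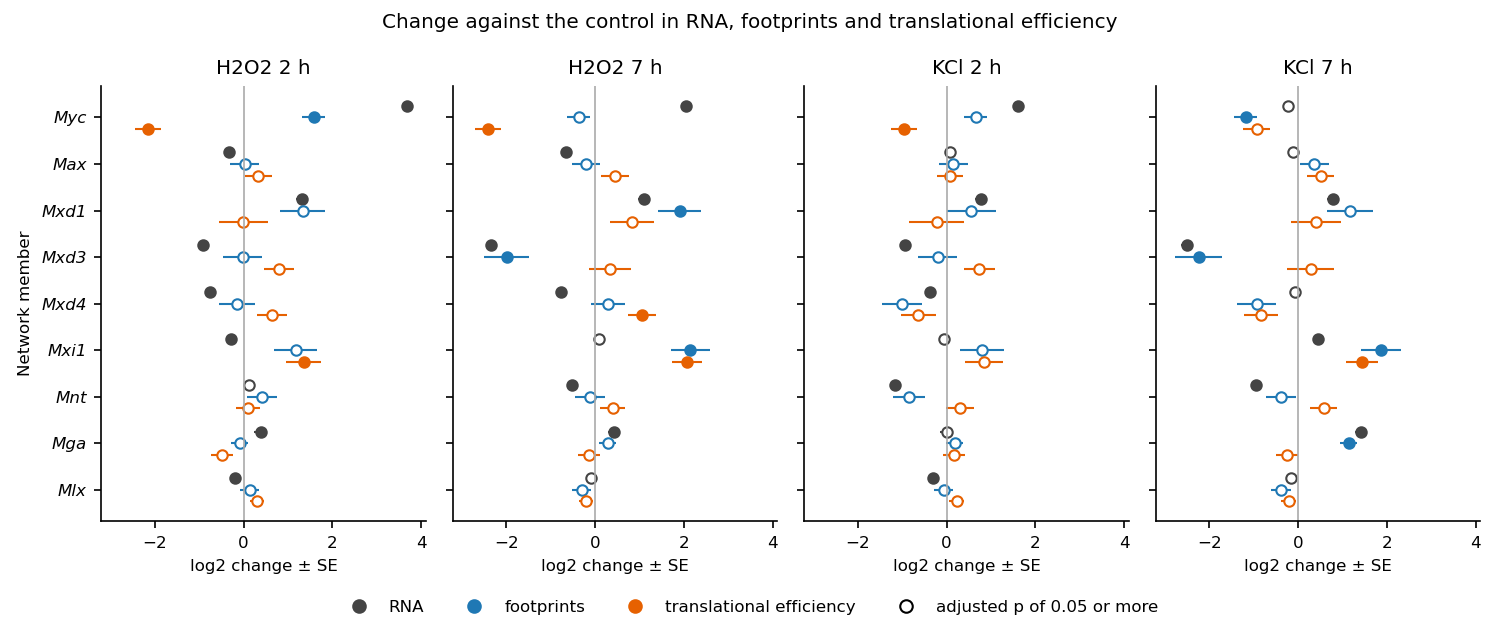
Log2 change against the control (± SE) of each member in RNA, footprints and translational efficiency, one panel per condition; filled points have an edgeR adjusted p under 0.05. Myc is the member whose RNA and efficiency points lie farthest apart with H2O2 (3.69 against -2.14 at 2 h), and Mxi1 has efficiency points at 1.35 and 2.06.

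The other genes of the pathway were read from lists by role, drawn up with earlier results of these data known, so their counts are a description and not independent evidence. Of 30 genes commonly listed as MYC targets, all tested, 25 were called higher and 2 lower in RNA at 42 °C (median log2 change 0.56, against -0.01 over all genes). After 7 h with H2O2 26 were higher and 2 lower (median 0.56, against 0.08 over all genes). After 2 h with H2O2 20 were higher and 3 lower (median 0.31). Of all genes 31.7% were higher and 31.9% lower at 42 °C. These shares were 39.4% and 31.1% after 7 h and 27.3% and 26.5% after 2 h with H2O2. Odc1, the first enzyme of polyamine synthesis, rose by 1.73 ± 0.06 and Shmt2, a mitochondrial serine enzyme, by 1.65 ± 0.06 after 7 h with H2O2. At 44 °C, where Myc RNA was lower, 7 targets (23.3%) were higher and 10 (33.3%) lower (median -0.03), both below the shares of all genes. Under KCl for 7 h, where Myc RNA was not called, 7 (23.3%) were higher and 12 (40%) lower (median -0.10, against 0.04 over all genes). There the higher share lay below and the lower share above that of all genes. Under KCl for 2 h, where Myc RNA rose, 10 (33.3%) were higher and 2 (6.67%) lower (median 0.03). Of all genes 27.2% were higher and 27.0% lower there. Hspe1 and Hspd1, mitochondrial chaperones also known as heat shock genes, rose by 2.04 ± 0.05 and 1.44 ± 0.04 at 44 °C. Whether any change of these 30 genes depended on MYC was not tested.

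The same 30 genes lay lower in translational efficiency with H2O2. RNA is the denominator of efficiency, so higher RNA with unchanged footprints gives a lower efficiency, and RNA and efficiency are not separate readouts. Of the 30 genes 0 were called higher and 11 (36.7%) lower at 2 h with edgeR, against 3.98% and 7.46% of all genes (median -0.51). At 7 h 0 were higher and 17 (56.7%) lower with edgeR, against 4.69% and 4.57% of all genes (median -0.89, against 0.06 over all genes). Ppan, a ribosome assembly factor, fell by 1.37 (SE 0.18, edgeR adjusted p = 0.00022) at 2 h and by 1.22 (SE 0.18, edgeR adjusted p = 0.00060) at 7 h. In footprints after 2 h with H2O2, 0 were called higher and 2 (6.67%) lower with edgeR, against 1.14% and 0.768% of all genes (median -0.19). After 2 h with KCl 0 were higher and 2 (6.67%) lower, against 1.79% and 5.06% of all genes. At 7 h with KCl 1 (3.33%) was higher and 3 (10%) lower, against 10.5% and 9.83% of all genes. With H2O2 for 7 h, where 26 had been called higher in RNA, 3 (10%) were higher and 9 (30%) lower in footprints (median -0.37). Of all genes 17.2% were higher and 10.6% lower there. With KCl 1 was lower and 0 higher in efficiency at each time, Odc1 at 2 h (-2.07 ± 0.32) and Gnl3, a nucleolar GTPase, at 7 h (-1.27 ± 0.21). This is 3.33% of the list, below the 9.18% of all genes lower at 2 h and the 3.88% lower at 7 h.

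**Figure D5:**
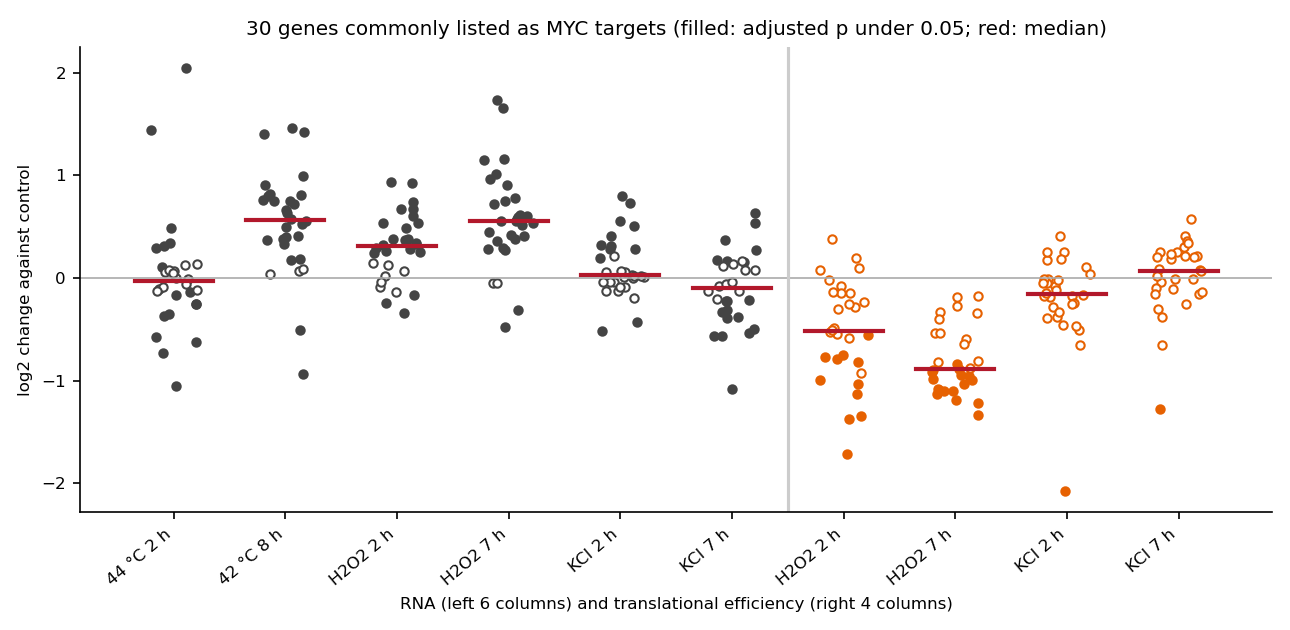
Log2 change against control of the 30 genes commonly listed as MYC targets, in RNA (6 columns on the left) and in translational efficiency (4 columns on the right); each point is a gene, filled where the edgeR adjusted p was under 0.05, and red bars are medians. The medians lie at 0.56 in RNA at 42 °C and after 7 h with H2O2, and at -0.51 and -0.89 in efficiency at 2 and 7 h of H2O2.

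Of 6 genes commonly listed as repressed by MYC, 3 were called higher and 3 lower at both times of H2O2. The median at 7 h was 0.72, against 0.08 over all genes. Of all genes 27.3% were higher and 26.5% lower at 2 h, and 39.4% and 31.1% at 7 h. Cdkn1a, the cell cycle inhibitor p21, rose by 5.45 ± 0.08 after 7 h with H2O2. Under KCl for 7 h 0 were higher and 5 lower, against 37.2% and 31.6% of all genes, with Cdkn1a at -1.42 ± 0.08. Under KCl for 2 h 1 was higher and 2 lower, against 27.2% and 27.0%. At 42 °C 1 was higher and 5 lower, against 31.7% and 31.9%, with Gas1, a growth arrest gene, at -1.29 ± 0.05. At 44 °C 2 were higher and 4 lower (median -0.34), against 35.4% and 35.7% of all genes. Txnip, a thioredoxin-binding protein and target of MLX with MLXIP, fell in 5 of the 6 stresses, with log2 changes of -1.103 at 42 °C, -2.22 and -0.85 after 2 and 7 h with H2O2 and -3.50 and -1.44 after 2 and 7 h with KCl, and rose by 0.51 ± 0.06 at 44 °C. Arrdc4, its relative, passed the filter in the heat experiment only and was at -0.99 ± 0.26 at 42 °C (edgeR adjusted p = 0.0042). Mlx RNA itself was called in 3 of those 6 stresses, at most -0.30 from its control. Of the further network genes, Mycl and Mlxip passed the filter on low counts, and Mycn and Mlxipl did not. Mycl, a MYC relative, rose by 1.71 ± 0.22 and Mlxip by 0.60 ± 0.07 after 7 h with KCl.

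Among the 7 SIN3 corepressor genes, 5 were higher and 0 lower after 7 h with KCl with edgeR (median 0.18, against 0.04 over all genes). Of all genes 37.2% were higher and 31.6% lower there. After 2 h with H2O2 1 was higher and 4 lower, against 27.3% and 26.5% of all genes, with Sin3a, the scaffold, at -0.43 ± 0.06. Of 10 PRC1.6 partners of MGA, 3 (30%) were higher and 5 (50%) lower after 7 h with KCl (median -0.06, against 0.04 over all genes), where Mga itself rose. Ring1 (-1.099 ± 0.11) and Pcgf6 (-0.82 ± 0.10), subunits of the complex, fell there, and E2f6, its DNA-binding repressor, rose (0.66 ± 0.08). Of 10 cofactors of MYC, 7 were higher and 1 lower at 42 °C (median 0.22, against -0.01 over all genes). Of all genes 31.7% were higher and 31.9% lower there. Under KCl for 7 h, where Myc was not called, 6 (60%) were higher and 3 (30%) lower (median 0.58, against 0.04 over all genes). After 7 h with H2O2 1 was higher and 2 lower, against 39.4% and 31.1% of all genes, and Ruvbl2, an ATPase of chromatin complexes, rose by 1.05 ± 0.07.

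Of 9 genes of MYC protein turnover, 3 were higher and 2 lower in RNA after 7 h with H2O2, against 39.4% and 31.1% of all genes. In footprints 2 were higher and 2 lower there, against 17.2% and 10.6%, and in efficiency 1 and 1, against 4.69% and 4.57%. Fbxw7, the ligase subunit that marks MYC for degradation, rose there by 1.17 ± 0.08 in RNA, 4.37 ± 0.42 in footprints and 3.22 ± 0.31 in efficiency. A link of these genes to Myc efficiency was not tested. Usp36, a nucleolar deubiquitinase that stabilises MYC, rose by 1.82 ± 0.06 in RNA after 2 h with H2O2, and its efficiency fell by 1.34 (SE 0.28). Over that list 1 (11.1%) was higher and 3 (33.3%) lower in RNA after 2 h with H2O2, against 27.3% and 26.5% of all genes. Under KCl for 2 h 2 (22.2%) were higher and 7 (77.8%) lower (median -0.25), against 27.2% and 27.0% of all genes. Of 8 RNA-binding proteins reported on Myc mRNA, 8 were higher and 0 lower at 42 °C and after 2 h with KCl with edgeR (median 0.31 at 42 °C, against -0.01 over all genes). Of all genes 31.7% were higher at 42 °C and 27.2% after 2 h with KCl. After 2 h with H2O2 5 (62.5%) were higher and 1 (12.5%) lower, against 27.3% and 26.5% of all genes. Zfp36, which destabilises AU-rich mRNAs, rose by 2.54 ± 0.09 and Zfp36l1, its relative, by 0.68 ± 0.08 after 2 h with H2O2. A link to the level of Myc RNA was not tested.

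Genes whose 6 RNA changes resembled those of a member were ranked by the root mean square difference of the log2 changes among 9239 genes, as a description over 6 contrasts that share controls. Nearest to Myc were Plk2, a polo-like kinase (difference 0.43), Spry2, a feedback inhibitor of growth factor signalling (0.43), Hbegf, an EGF receptor ligand (0.64), Fosl1, an AP-1 subunit (0.73), and Tnfaip3, an NF-kB feedback enzyme (0.78). With H2O2 for 2 h these 5 stood at 3.14, 3.46, 3.19, 2.79 and 4.04, beside 3.69 for Myc, and at 44 °C at -0.68, -0.24, -0.60, -0.20 and -0.43, beside -0.83. The nearest gene to Mxd1 was Gclc, an enzyme of glutathione synthesis (0.33), to Mnt Xbp1, a transcription factor of the unfolded protein response (0.25), and to Mga Zranb2 (0.12). For Max it was Nr2f6 (0.069), for Mxd4 Tbc1d17 (0.17), for Mxi1 Dscr3 (0.093) and for Mlx Arpc1a (0.076).

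The study asked, by its title, how transcription running past gene ends under stress enters neighbouring genes, and the authors deposited calls for 6399 pairs of neighbours. A DoG call marks a transcript that continues downstream of a gene, and a read-in call marks its entry into the next gene. Members took part in 7 pairs, in 4 as the downstream gene. Over 112 combinations of these pairs with the 16 RNA libraries, the authors' tables held 27 DoG calls (24.1%, against 28.5% over all pairs) and 0 read-in calls (against 1.38% over all pairs). A DoG call belongs to the upstream gene, which was a member in 3 of the 7 pairs. In these Mnt had 4, Mxd3 2 and Mlx 1 DoG calls in 16 libraries each. The upstream neighbour of Mxd1, Snrnp27, had 9 DoG calls in 16 libraries, and the authors' read-in estimate for Mxd1, a ratio without a stated formula, ran from 0.00855 to 0.0838 with a median of 0.0455. For Myc below Trib1 the estimate reached 0.0169 at most and for Mnt below Mettl16 0.0505. For Mxd3 below Lman2 it reached 0.0183. Among read-in calls over all pairs the finite estimates had a median of 0.272 and a lowest value of 0.0006, a range that takes in the members' highest estimates.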

How the data were processed

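NIH3T3 RNA (16 libraries in 8 groups) and ribosome footprints (10 libraries in 5 groups) were measured, 2 libraries a group. The deposited expected counts and the deposited TPM values per gene were made by the authors with STAR, Bowtie and RSEM on mm10, tools and build being named in the submitters' processing notes, with versions, roles and strand setting not given in the sources used here. Without a stated strand setting, reads of overlapping genes cannot be told apart. The authors' deposited DoG and read-in calls are true or false values, and the deposited read-in estimate is a ratio whose formula is not given. 12 columns of heat footprints matched no sample label and were not used.

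Expected counts were tested with edgeR 4.0.16 in R 4.3.3 (TMM scaling, filterByExpr with a count minimum of 10, quasi-likelihood F test). Adjustment was Benjamini-Hochberg over all genes, with a threshold of 0.05. Heat RNA, H2O2/KCl RNA and footprints were fitted separately, and translational efficiency as the interaction of stress and kind of library in 1 model of 20 libraries. CPM values are counts relative to the TMM-scaled library total. Alternatives were DESeq2 1.42.0, limma 3.58.1 on log2(TPM + 1) with a pseudocount of 1, RLE size factors, limma voom, no filter, a replicate block, only the groups compared, and each library left out. The scripts were tested on simulated data.

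The members and all lists were chosen with earlier results of these data known. Named were all 9 members, at most 3 called genes with the largest change per list and comparison, and the genes nearest to each member among those whose mean log2 CPM reached 3. The nearest gene to Mxd3 is not reported here.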

Additional observations from a re-analysis of the deposited data

Results flagged for a closer look

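Effects of one agent at its 2 time points were compared by testing 7 h against 2 h directly, over the 9 members and both agents. With H2O2, Myc was lower at 7 h than at 2 h by a log2 difference of -1.64 (edgeR adjusted p = 6.6e-10), Max by -0.33 (0.00023), Mxd3 by -1.42 (1.4e-07) and Mnt by -0.64 (1.7e-06). Mxi1 was higher by 0.38 (edgeR adjusted p = 0.00043). With KCl, Myc was lower at 7 h by -1.82 (edgeR adjusted p = 1.2e-09), Max by -0.19 (0.013) and Mxd3 by -1.56 (1.6e-07). Mga was higher by 1.42 (edgeR adjusted p = 6.6e-07), Mxi1 by 0.51 (3.2e-05), Mxd4 by 0.32 (0.016) and Mnt by 0.21 (0.031). Of these, the KCl difference of Max was lost without the KCl 7 h library 1 (-0.12, edgeR adjusted p = 0.14) and that of Mxd4 without the same library (0.27, 0.10), and with DESeq2 (0.31, adjusted p = 0.050). The KCl difference of Mnt was lost without KCl 2 h library 1 (0.23, edgeR adjusted p = 0.057) or 2 (0.19, 0.10) or KCl 7 h library 2 (0.17, 0.14). It was also lost with DESeq2 (0.20, adjusted p = 0.079), on the log2(TPM + 1) scale (0.17, limma adjusted p = 0.073) and when only the groups compared were fitted (0.19, edgeR adjusted p = 0.092), so 6 of 10 alternatives lost it.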

How the results depend on the processing

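Over 171 member values and their alternatives, 1667 kept direction and call, 94 lost the call, 33 gained it and 60 turned sign. No change called in the report turned sign in any of these alternatives, and the cause of each change was not tested. Groups share replicate numbers 1 and 2, but nothing in the labels ties them, so the numbers were not taken as pairs. Deviations of same-numbered libraries correlated at 0.0359 to 0.11 (heat), -0.126 to 0.17 (H2O2 and KCl RNA), -0.405 to 0.435 (footprints) and -0.194 to 0.0933 (RNA with footprints). Among footprints they were 0.202 to 0.435 between the control, H2O2 7 h and both KCl groups, but -0.405 to -0.0398 for these with H2O2 2 h. These values do not show that same-numbered footprint libraries are unrelated. The replicate block kept the 19 counts of members called within 1.5 times, with 8 at 44 °C in RNA. On the log2(TPM + 1) scale, the number of members called was 8 (RNA KCl 7 h, 5 as reported), 0 (footprints H2O2 2 h, 1 as reported), 1 (efficiency H2O2 2 h, 2 as reported), 0 (efficiency KCl 2 h, 1 as reported), 0 (efficiency KCl 7 h, 1 as reported). There the log2 change turned sign to 0.0616 for Max (RNA at 44 °C), -0.046 for Max (RNA KCl 2 h), -0.204 for Mga (RNA KCl 2 h), -0.00186 for Mxd1 (RNA KCl 7 h against 2 h), -0.0401 for Max (footprints H2O2 2 h), -0.0755 for Mlx (footprints H2O2 2 h), 0.0971 for Max (footprints H2O2 7 h), 0.0104 for Mlx (efficiency H2O2 7 h). With DESeq2, the log2 change turned sign to 0.000893 for Mlx (RNA at 42 °C), 0.0257 for Mxd3 (footprints H2O2 2 h). With RLE size factors, the log2 change turned sign to 0.000762 for Mlx (RNA at 42 °C), 0.00167 for Mxd1 (efficiency H2O2 2 h). With no filter on low counts, the log2 change turned sign to -0.0178 for Mga (RNA KCl 2 h), 0.0339 for Mxd1 (efficiency H2O2 2 h). With the replicate number as a block, the log2 change turned sign to -0.0181 for Mga (RNA KCl 2 h), 0.0621 for Mxd1 (efficiency H2O2 2 h). When only the groups compared were fitted, the number of members called was 8 (RNA KCl 7 h, 5 as reported), 1 (efficiency H2O2 2 h, 2 as reported), 0 (efficiency KCl 2 h, 1 as reported), 0 (efficiency KCl 7 h, 1 as reported). There the log2 change turned sign to -0.0111 for Mga (RNA KCl 2 h), -0.00413 for Mxd1 (RNA KCl 7 h against 2 h). With limma voom and a weight per kind of library, the number of members called was 1 (efficiency H2O2 2 h, 2 as reported), 0 (efficiency KCl 7 h, 1 as reported). There the log2 change turned sign to -0.00031 for Mnt (efficiency H2O2 2 h).

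With single libraries left out, the number of members called ran over 4 to 7 (RNA H2O2 against KCl 2 h), 0 to 1 (footprints H2O2 2 h), 1 to 3 (footprints H2O2 7 h), 1 to 4 (footprints KCl 7 h), 1 to 3 (efficiency H2O2 2 h), 0 to 1 (efficiency KCl 2 h), 0 to 1 (efficiency KCl 7 h). Uncalled log2 changes that turned sign with a library left out ran as follows. For RNA at 44 °C they ran from Max -0.0509 to 0.00818. For RNA at 42 °C they ran from Mlx -0.0169 to 0.00758. For RNA KCl 2 h they ran from Mxi1 -0.141 to 0.00932, Mga -0.365 to 0.29. For RNA H2O2 7 h against 2 h they ran from Mxd4 -0.18 to 0.156, Mga -0.046 to 0.136. For RNA KCl 7 h against 2 h they ran from Mxd1 -0.208 to 0.223. For RNA H2O2 against KCl 2 h they ran from Mxd3 -0.0846 to 0.138. For RNA H2O2 against KCl 7 h they ran from Mlx -0.00949 to 0.124. For footprints H2O2 2 h they ran from Max -0.246 to 0.37, Mxd3 -0.246 to 0.298, Mxd4 -0.801 to 0.0882, Mnt -0.123 to 0.95, Mga -0.243 to 0.0802. For footprints H2O2 7 h they ran from Max -0.477 to 0.102. For footprints KCl 2 h they ran from Max -0.471 to 0.587, Mxd1 -0.252 to 1.06, Mlx -0.183 to 0.0413. For efficiency H2O2 2 h they ran from Mxd1 -0.264 to 0.258, Mxd4 -0.0959 to 0.807, Mnt -0.301 to 0.774. For efficiency H2O2 7 h they ran from Mxd3 -1.08 to 1.01, Mga -0.271 to 0.0344. For efficiency KCl 2 h they ran from Max -0.554 to 0.503, Mxd1 -1.04 to 0.283, Mga -0.117 to 0.534. For efficiency KCl 7 h they ran from Mxd3 -0.0700 to 0.523. Footprint values rest on few reads, with 3 to 18 counts for Mxd1, Mxi1 or Mxd3 in some libraries, and 2 libraries a group limit every test.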
